A study of Mus musculus with 2 samples.

Results

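The cells described here are those that the authors' cell table names GOBLET, mature goblet cells of the ileal crypt. They were found by that class name and joined by barcode to the raw matrices, which gave 126 cells of the 11562 listed. Library replicate 1 held 42 of 5305 listed cells (0.792%, exact 95% binomial interval 0.571 to 1.07%) and replicate 2 held 84 of 6257 (1.34%, 1.07 to 1.66%). There was 1 group of samples, titled WT: ileum of Atoh1CreER-T2;R26RTom mice, given 2 tamoxifen injections (1 mg/mL) with 24 h between them and sampled 12 h after the second. Atoh1 drives the Cre recombinase in these mice, so the Tom reporter marks cells that expressed this gene of secretory precursors, and their descendants. Crypts were parted from villi by straining before live Tom+ cells were sorted, so goblet cells of the villus were not the aim of the sampling. The labels do not say whether the replicates are separate mice, and age and sex are not given in the sources used here.

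Goblet cells are secretory cells of the gut epithelium that fill their apical cytoplasm with granules of mucin and release them as the mucus layer. In mice they arise from Atoh1-positive progenitors that pass through goblet precursors, and late in their life they move up out of the crypt and are shed. The authors' table names 11 other classes. GOBLET-PRE is the nearest by name and PANETH is the other granule-filled secretory class. ENTERO-PRO stands for the absorptive side, and the genes in which it exceeded GOBLET by most include enterocyte genes. Some of its cells also held goblet products: the 5 products described below took a median of 0.320% and 0.542% of an ENTERO-PRO cell's UMIs in replicates 1 and 2, but the 75th percentile was 4.88% and 6.66%.

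All levels below are summed UMIs of a class in 1 library, expressed as CPM of that class's total and scaled by a factor computed with edgeR from abundant genes, and are written as scaled CPM. A gene was called higher or lower where log2 of (CPM + 5) differed by at least 1, a 2-fold difference, in the same direction in both libraries. It was compared where the mean of both classes gave at least 20 UMIs expected in GOBLET in both libraries. A gene low in either class could be compared only through a high level in the other. Counts of called genes within gene lists therefore follow in part from this minimum. The classes were defined by the authors from the same UMIs, so GOBLET against another class is a description without p-values. Scaling matters because mucus transcripts fill the GOBLET sums: the factor was 0.657 and 0.696 in GOBLET, against 1.11 and 1.10 in GOBLET-PRE. Without it the median log2 difference over the genes compared with GOBLET-PRE was -0.61 in place of 0.08.

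The label was checked with Muc2, Krt20 and Lgals3, which encode the gel-forming mucin of the intestine, a keratin of the upper crypt and surface, and a galectin. Cells were thinned to 1000 UMIs each so that depths were equal, and no GOBLET cell was too shallow for this. Muc2 gave a UMI in 42 of 42 GOBLET cells of replicate 1 and 84 of 84 of replicate 2, against 99.7% and 99.6% of GOBLET-PRE cells. In TUFT cells, which should lack it, the share was 29.9% and 32.9%. The median depth before thinning was 3201.5 and 2763.5 UMIs in GOBLET cells, against 3403 and 2317 in TUFT cells. Krt20 gave a UMI in 81.0% and 70.2% of GOBLET cells, against 29.6% and 27.7% of GOBLET-PRE cells and 2.55% and 1.43% of TUFT cells. Lgals3 gave one in 35.7% and 33.3% of GOBLET cells, against 1.73% and 1.43% of GOBLET-PRE cells and 0.637% and 4.29% of TUFT cells. Without thinning, Krt20 was seen in 100% and 94.0% of GOBLET cells and Lgals3 in 61.9% and 54.8%. All 3 markers were present in both libraries, and Lgals3 was also seen in ENTERO-PRO cells (32.5% and 23.0% after thinning).

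Promoter sequences are shown for 4 genes that were higher in GOBLET than in each of the other classes: Muc2 and Fcgbp as mucus products, Mxd1 as a transcriptional regulator and Ddx60 as a gene with one of the largest differences. They are the 250 bases before the start site from RefSeq (GRCm38.p6), at chr7:141690090-141690339 (plus strand), chr7:28070986-28071235 (plus), chr6:86669160-86669409 (minus) and chr8:61927837-61928086 (plus). Capitals mark matches, on either strand, to TATAAA (the TATA box), CACCC (bound by KLF and SP factors), GGGCGG (the GC box) and TTCNNTTTC (the core of the interferon-stimulated response element).
Muc2: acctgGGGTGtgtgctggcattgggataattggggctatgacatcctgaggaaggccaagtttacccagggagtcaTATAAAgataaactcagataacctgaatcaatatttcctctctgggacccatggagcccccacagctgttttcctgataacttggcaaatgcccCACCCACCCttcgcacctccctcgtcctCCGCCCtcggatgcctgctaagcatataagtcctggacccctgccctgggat
Fcgbp: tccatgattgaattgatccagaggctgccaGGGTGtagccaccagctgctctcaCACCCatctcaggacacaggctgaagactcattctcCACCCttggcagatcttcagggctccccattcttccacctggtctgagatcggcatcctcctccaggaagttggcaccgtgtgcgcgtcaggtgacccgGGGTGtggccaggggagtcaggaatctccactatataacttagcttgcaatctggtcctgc
Mxd1: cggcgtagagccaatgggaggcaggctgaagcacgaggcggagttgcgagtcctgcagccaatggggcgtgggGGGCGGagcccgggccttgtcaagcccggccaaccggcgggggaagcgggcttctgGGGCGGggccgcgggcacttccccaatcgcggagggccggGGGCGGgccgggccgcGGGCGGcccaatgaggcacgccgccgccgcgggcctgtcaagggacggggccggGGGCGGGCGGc
Ddx60: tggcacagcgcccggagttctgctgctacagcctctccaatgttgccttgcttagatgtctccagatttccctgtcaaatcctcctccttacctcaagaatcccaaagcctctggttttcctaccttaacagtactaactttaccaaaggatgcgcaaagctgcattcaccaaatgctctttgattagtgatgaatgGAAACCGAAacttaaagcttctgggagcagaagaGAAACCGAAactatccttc
The Muc2 window held TATAAA 174 bases before the start site, CACCC at 80 and 76 bases on the same strand, where both matches share 1 base, CACCC at 245 bases on the other strand and GGGCGG at 52 bases on the other strand. Fcgbp held 4 matches to CACCC, and Mxd1 held 6 to GGGCGG, of which those at 11 and 7 bases overlap. Ddx60 held TTCNNTTTC on the other strand at 53 and 19 bases. Of the 38 genes higher in GOBLET than in each class, 20 had an entry in the table, with 21 windows. CACCC stood in 12 of these 21 windows, against 52.0% of all 32851 windows, GGGCGG in 10 against 32.7%, TATAAA in 3 against 12.4% and TTCNNTTTC in 2 against 7.13%. A match is a run of letters and not a site.

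Mucus products filled the GOBLET cells. Zg16 encodes a lectin-like protein of goblet granules that binds bacteria (mm10 chr7:127050156-127087328, minus strand, GENCODE M21). It made up 17.1% and 16.4% of all GOBLET UMIs in replicates 1 and 2, against 3.33% and 2.38% in GOBLET-PRE. Its level was 260086 and 236125 scaled CPM in GOBLET, against 30149 and 21542 in GOBLET-PRE, 1065 and 1644 in PANETH, and 15483 and 13289 in ENTERO-PRO. Both GOBLET libraries stood far above every library of these classes, and the log2 difference from GOBLET-PRE was 3.11 and 3.45. The ENTERO-PRO level came from a minority of its cells, with a median of 0.0619% and 0.0591% of a cell's UMIs and a highest value of 8.00% and 11.3%. Muc2 (mm10 chr7:141690340-141754693, plus strand) had 39470 and 35820 scaled CPM in GOBLET, against 10262 and 10380 in GOBLET-PRE, a log2 difference of 1.94 and 1.79.

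Other products followed the same order, with the trefoil peptide Tff3 at 124500 and 126133 scaled CPM in GOBLET, against 39089 and 36728 in GOBLET-PRE. Fcgbp, a mucus-bound protein, had 61366 and 62554 in GOBLET, against 9515 and 11073 in GOBLET-PRE. Clca1, a protease that processes Muc2, had 34099 and 34388 in GOBLET, against 5603 and 8763 in GOBLET-PRE. For these genes GOBLET was highest of the 12 classes and GOBLET-PRE second. Of the 18 mucus proteins listed, 13 were compared with GOBLET-PRE and 8 were higher (Zg16, Fcgbp, Clca1, Muc2, Muc3a, Tff3, Lypd8 and Muc13) and 0 lower, with a median log2 difference of 1.62. Over all genes compared, 16.4% were higher and 14.8% lower, and the median was 0.08. Without the scaling factor 5 of the 13 were higher and 1 lower, and Tff3, Lypd8 and Muc13 were no longer called.

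**Figure D1:**
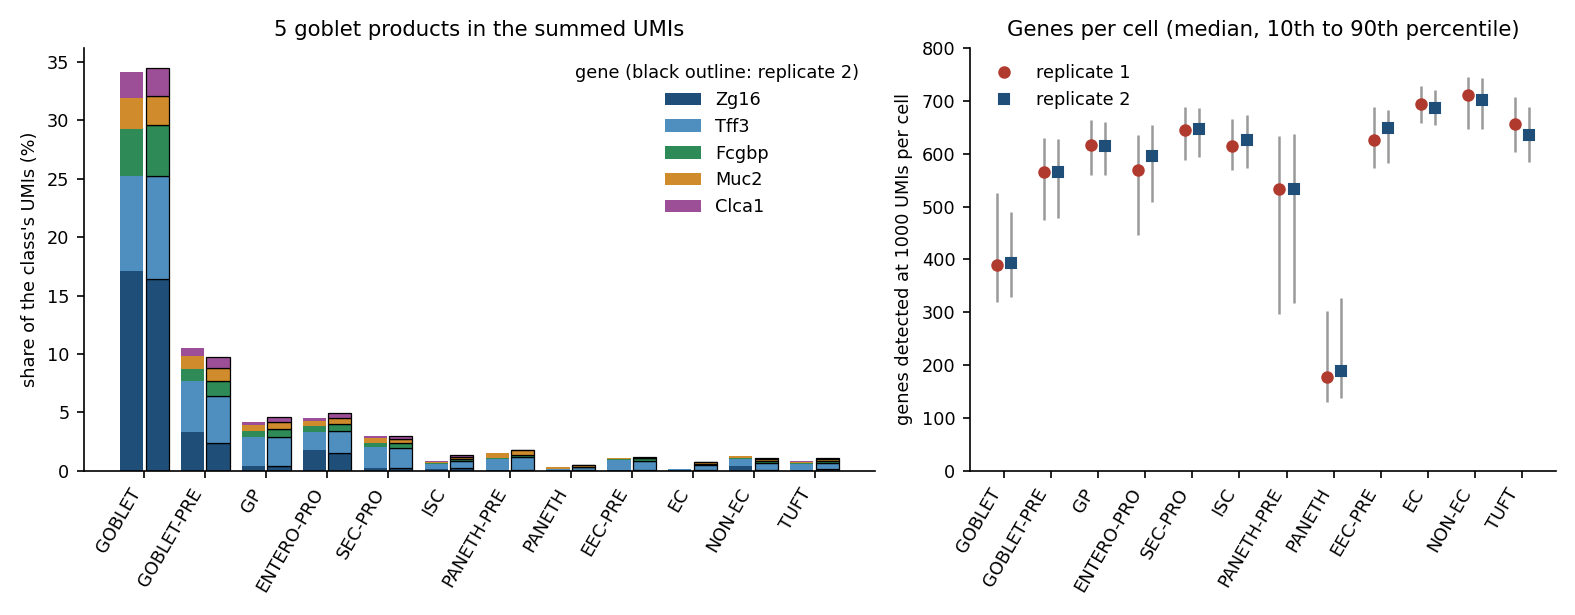
Left, the share of each class's summed UMIs (%, vertical axis) taken by Zg16, Tff3, Fcgbp, Muc2 and Clca1, with replicate 1 and replicate 2 (black outline) side by side. Right, genes detected per cell after thinning to 1000 UMIs (median as a point, 10th to 90th percentile as a line): GOBLET sits at 389 and 394, under GOBLET-PRE at 566 and 565 and above PANETH at 177 and 188.5.

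Not every product stood higher in GOBLET than in GOBLET-PRE. Agr2, a disulphide isomerase needed to make Muc2 in mice, had 10919 and 11204 scaled CPM in GOBLET, against 19054 and 14118 in GOBLET-PRE, log2 differences of -0.80 and -0.33 that were not called. Spink4, a small secreted peptide, had 25865 and 33197 in GOBLET, against 31734 and 34898 in GOBLET-PRE and 44699 and 104271 in PANETH. Guca2a, which encodes guanylin, had 3287 and 4623 in GOBLET, against 6412 and 5846 in GOBLET-PRE. These 3 were below GOBLET-PRE in both libraries, by less than the 2-fold set for a call. Muc3a, a membrane mucin, had 395 in each GOBLET library, against 108 and 113 in GOBLET-PRE, and Lypd8, an anchored surface protein known in mice to keep bacteria from the colon epithelium, had 8204 and 8697 in GOBLET, against 2707 and 2775 in GOBLET-PRE.

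Against GOBLET-PRE, 640 genes were compared, and 105 were higher (16.4%) and 95 lower (14.8%) in GOBLET. With no scaling factor the split was 37 higher and 230 lower. The 10 with the largest difference were Ido1, Lgals3, Mxd1, Ddx60, Gsta4, Zg16, S100a6, Ahnak, Fcgbp and Crip1, unnamed gene models left out. The highest point among all genes in the plot of fold by replicate was such a model, 2010109I03Rik, with 133 and 96 UMIs in GOBLET, against 4 and 1 in GOBLET-PRE. It was seen in 26.2% and 21.4% of GOBLET cells after thinning, so its level rested on a minority of cells. In ENTERO-PRO it had 278 and 146 UMIs, in sums of 632914 and 789346 UMIs, against 154169 and 232707 in GOBLET. On the scaled level it was called higher in GOBLET than in each other class, by a log2 difference of at least 1.73.

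**Figure D2:**
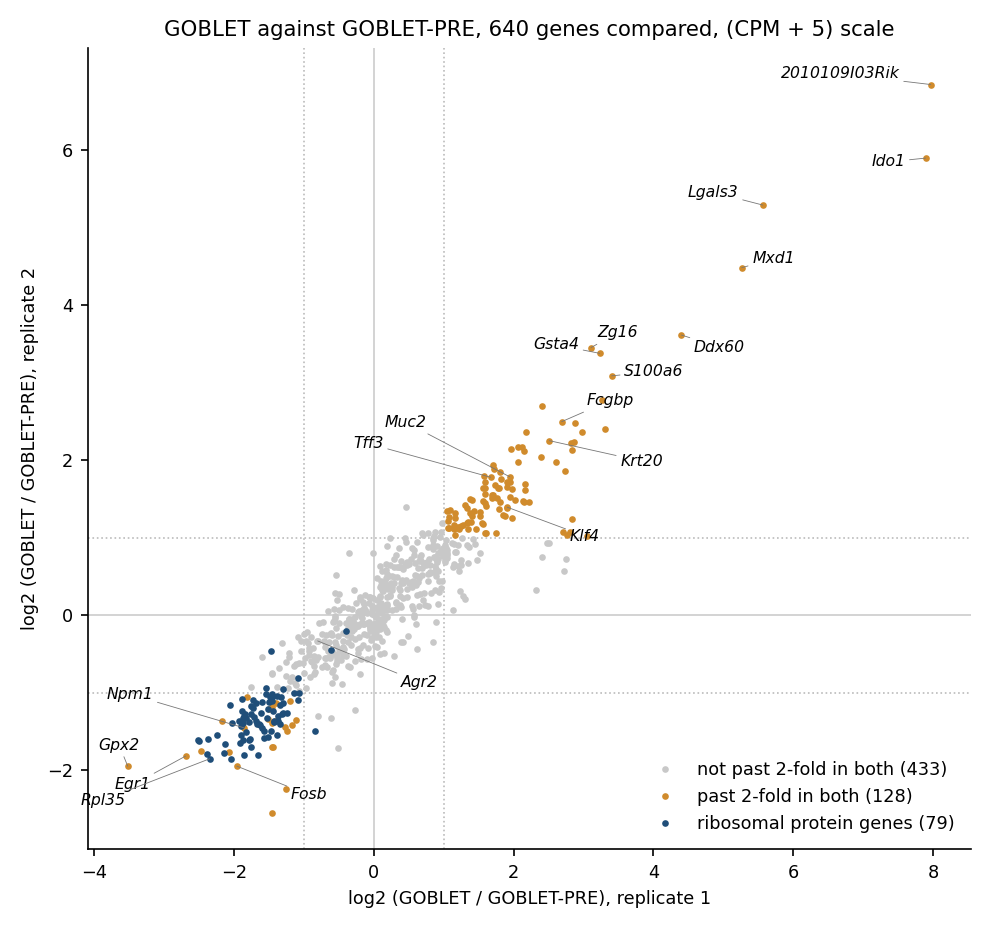
Each point is 1 of 640 genes compared, with log2 of the (CPM + 5) ratio of GOBLET to GOBLET-PRE in replicate 1 (horizontal) and replicate 2 (vertical). Dotted lines mark the 2-fold limits: 105 genes lie past both on the high side, and the ribosomal protein genes (blue) lie on the low side, 72 of 79 past both limits.

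Ido1, the enzyme that opens the breakdown of tryptophan to kynurenine, showed the widest contrast of a named gene (mm10 chr8:24584136-24597009, minus strand). Its level was 1372 and 401 scaled CPM in GOBLET, against 0.788 and 1.80 in GOBLET-PRE, 1.82 and 6.05 in PANETH and 1.41 and 1.10 in ENTERO-PRO. In UMIs these were 139 and 65 in GOBLET, against 12 and 10 in the far deeper GOBLET-PRE sums. The other classes held at most 8 UMIs in a library, and EC, EEC-PRE, NON-EC and TUFT held 0 in both. The GOBLET libraries differed from each other, with an Ido1 UMI in 31 of 42 cells of replicate 1 and 31 of 84 cells of replicate 2 before thinning (21 of 42 and 15 of 84 after it). Both were far above GOBLET-PRE, where 0.431% and 0.683% of cells had one before thinning and 0.0864% and 0.205% after it.

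Ddx60, a helicase-like protein known as interferon-inducible, had 484 and 315 scaled CPM in GOBLET, against 18.1 and 21.1 in GOBLET-PRE, a log2 difference of 4.40 and 3.62. Ifi27l2b had 2261 and 1876 in GOBLET, against 424 and 454 in GOBLET-PRE. H2-T23, a non-classical MHC class I molecule, had 691 and 253 in GOBLET, against 172 and 103 in GOBLET-PRE. In these genes, as in Ido1, GOBLET of replicate 1 stood above GOBLET of replicate 2. Of the 28 genes listed for interferon response and antigen presentation, none of which is a gene just named, 7 were compared with GOBLET-PRE. Of these, 1 (Psmb8) was higher, against 16.4% of all genes, so the count of calls was near the background. The median log2 difference of the 7 was 0.90, against 0.08 over all genes compared. The summed level of the list was 6842 and 3981 in GOBLET, against 3202 and 2661 in GOBLET-PRE. Psmb8 was not called with relative log expression factors or without scaling.

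Regulators were mostly too low to compare. Of 24 secretory transcription factors listed, 6 were compared with GOBLET-PRE and 1, Klf4, was higher. Over all genes 16.4% were higher, so the list was near the background. Klf4, a zinc finger factor that goblet cells of the mouse colon need to mature, had 1392 and 1167 scaled CPM in GOBLET, against 367 and 441 in GOBLET-PRE, but was not called without the scaling factor. Atoh1, whose promoter carries the Cre, had 18 and 38 UMIs in GOBLET (178 and 235 scaled CPM), against 132 and 107 scaled CPM in GOBLET-PRE. Spdef, a factor of goblet and Paneth maturation, had 10 and 18 UMIs in GOBLET (98.7 and 111 scaled CPM), against 177 and 187 scaled CPM in GOBLET-PRE. Both fell below the minimum, and depth in GOBLET did not allow a difference to be shown.

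Mxd1, a Max partner that represses Myc targets, was among the clearest contrasts (mm10 chr6:86647042-86669161, minus strand). It had 1540 and 1512 scaled CPM in GOBLET, against 35.2 and 62.7 in GOBLET-PRE, 46.4 and 75.7 in PANETH and 241 and 166 in ENTERO-PRO. The GOBLET libraries lay together and far above the rest, with log2 differences from GOBLET-PRE of 5.26 and 4.49. After thinning, 47.6% and 64.3% of GOBLET cells had a Mxd1 UMI, against 3.63% and 6.69% of GOBLET-PRE cells. Cdkn1a, the cyclin-dependent kinase inhibitor p21, had 582 and 543 scaled CPM in GOBLET, against 167 and 187 in GOBLET-PRE, and was highest in NON-EC (1144 and 926). Btg2, another gene linked to cell cycle exit, went the other way, with 138 and 105 in GOBLET, against 377 and 279 in GOBLET-PRE. Of 19 cell cycle inhibitors listed, these were the 3 compared.

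Id1 and Id3, inhibitors of basic helix-loop-helix factors and known targets of BMP signalling, were both higher than in GOBLET-PRE. Id1 had 454 and 309 scaled CPM in GOBLET, against 64.1 and 81.5 in GOBLET-PRE. Id3 had 336 and 272 in GOBLET, against 110 and 117 in GOBLET-PRE. They were the only 2 compared of 29 genes listed for BMP, Notch and EGF signalling, against 16.4% of all genes higher. Both reached the minimum only through their GOBLET level, so this count follows in part from the minimum and is a description only. Id3 was not called without the scaling factor. None of the 30 genes listed for G1/S was compared. Mki67, a proliferation marker, had 2 and 4 UMIs in GOBLET in all, and the stem cell receptor gene Lgr5 had 0 and 1.

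Few of the listed genes of mucin glycosylation and granule release were high enough to compare. Galnt1, which starts mucin O-glycans, had 503 and 426 scaled CPM in GOBLET, against 144 and 134 in GOBLET-PRE. Gcnt3, which branches them, had 740 and 531 in GOBLET, against 251 and 231 in GOBLET-PRE. These were the 2 called of 7 compared among the 34 glycosylation genes listed, against 16.4% of all genes higher. The median log2 difference of the 7 was 0.13. Galnt1 and Gcnt3 both lost the call when no scaling factor was used. Sytl2 and Rab27b act in docking of secretory granules. Sytl2 had 977 and 679 in GOBLET, against 279 and 260 in GOBLET-PRE, and Rab27b had 474 and 444, against 212 and 196. Of 27 granule and exocytosis genes, 5 were compared and 3 were higher (Sytl2, Rab27b and Sct). In this list 1 was lower (Slc12a2, an ion cotransporter that the list also holds). Of all genes, 16.4% were higher and 14.8% lower, and 5 genes are few to set against these shares. Unscaled, 0 of 6 compared were higher, and 2 of 5 were with relative log expression factors. Sct, the hormone gene secretin, had 336 and 265 in GOBLET, against 136 and 116 in GOBLET-PRE and 3400 and 1920 in NON-EC.

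Few genes of folding and transport were called against GOBLET-PRE, where 16.4% of all genes were higher and 14.8% lower. Of 33 genes of endoplasmic reticulum folding, 14 were compared with GOBLET-PRE, 0 were higher and 1 was lower, Pdia6, a disulphide isomerase with 306 and 315 scaled CPM in GOBLET, against 873 and 736 in GOBLET-PRE. The summed level of the list was 9468 and 9771 in GOBLET, against 13274 and 13488 in GOBLET-PRE. Of 42 genes of translocation and transport to the Golgi, 22 were compared and 0 were called in either direction. Unscaled, these lists had 10 of 18 and 5 of 26 genes lower.

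Lgals3 (mm10 chr14:47367751-47386160, plus strand) had 938 and 728 scaled CPM in GOBLET, against 14.9 and 13.7 in GOBLET-PRE, 7.28 and 16.6 in PANETH and 381 and 266 in ENTERO-PRO. S100a6, a calcium-binding protein, had 10781 and 8420 in GOBLET, against 1014 and 986 in GOBLET-PRE, 71.0 and 114 in PANETH and 556 and 597 in ENTERO-PRO. The log2 difference from GOBLET-PRE was 5.57 and 5.29 for Lgals3, and 3.40 and 3.09 for S100a6. Of 23 annexins, S100 proteins and galectins listed, 9 were compared with GOBLET-PRE and 5 were higher (Lgals3, S100a6, S100a10, Anxa2 and Anxa4), with 0 lower, against 16.4% of all genes higher. Unscaled, 3 of 11 were higher. Against PANETH 9 of 9 were higher, where 24.0% of all genes were higher and 19.9% lower. Lgals3 and S100a6 reached the minimum for that comparison only through their GOBLET level. The 9 of 9 therefore follows in part from the minimum and is a description only. Against GOBLET-PRE, Lgals3 also reached the minimum only through its GOBLET level, so the 5 of 9 has the same limit.

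Krt20 (mm10 chr11:99428403-99438150, minus strand) had 1994 and 1543 scaled CPM in GOBLET, against 345 and 320 in GOBLET-PRE, 15.5 and 33.3 in PANETH and 869 and 625 in ENTERO-PRO. EC stood next below GOBLET with 1586 and 868, and the levels in the GOBLET and EC libraries overlapped. Of 12 keratin and junction genes compared with GOBLET-PRE, 4 were higher (Krt20, Dsg2, Krt19 and Krt8) and 0 lower, against 16.4% of all genes higher. Krt18, with log2 differences of 0.64 and 0.69, and Krt7, with 0.18 and -0.19, were not called. Of 20 genes of the actin cytoskeleton and brush border, 7 were higher, against the same 16.4%, among them Ezr, the linker ezrin, with 632 and 457 in GOBLET, against 132 and 163 in GOBLET-PRE. Unscaled, 2 of 12 and 1 of 23 were higher, and with relative log expression factors 4 of 20 actin genes were, so these counts depend on the scaling.

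Ribosomal protein genes were lower in GOBLET. They held 3.21% and 4.31% of GOBLET UMIs, against 16.2% and 16.3% of GOBLET-PRE UMIs. All 30 cytosolic ribosomal proteins listed were lower than in GOBLET-PRE, with a median log2 difference of -1.56, and 72 of the 95 genes lower belonged to this family. Rps2 had 395 and 469 scaled CPM in GOBLET, against 2084 and 1636 in GOBLET-PRE. Rpl35 had 178 and 370 in GOBLET, against 926 and 1353 in GOBLET-PRE. All 30 stayed lower with relative log expression factors and without scaling (median -2.26). Against PANETH the direction depended on scaling: 17 of 30 were lower with it, with a median of -1.20, and 0 without it, with a median of 0.27, and the PANETH share of UMIs was 2.67% and 3.15%.

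Among single genes outside the ribosomal proteins, Npm1, a nucleolar chaperone of ribosome assembly, had 98.7 and 111 scaled CPM in GOBLET, against 371 and 313 in GOBLET-PRE, and Rack1, a scaffold on the small ribosomal subunit, had 286 and 481, against 1606 and 1639. Gpx2, an epithelial glutathione peroxidase, had 29.6 and 86.4 in GOBLET (3 and 14 UMIs), against 392 and 349 in GOBLET-PRE. Of 13 immediate-early genes compared, which respond within minutes to stimuli and to cell dissociation, 6 were lower (Egr1, Fosb, Atf3, Jun, Btg2 and Ier2) and 0 higher, against 14.8% of all genes lower. The other 7 were not called, among them Fos with log2 differences of -0.62 and -1.33 and Jund with 0.01 and -0.15. Unscaled, 10 of 13 were lower. Egr1 had 79.0 and 235 in GOBLET, against 538 and 841 in GOBLET-PRE.

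**Figure D3:**
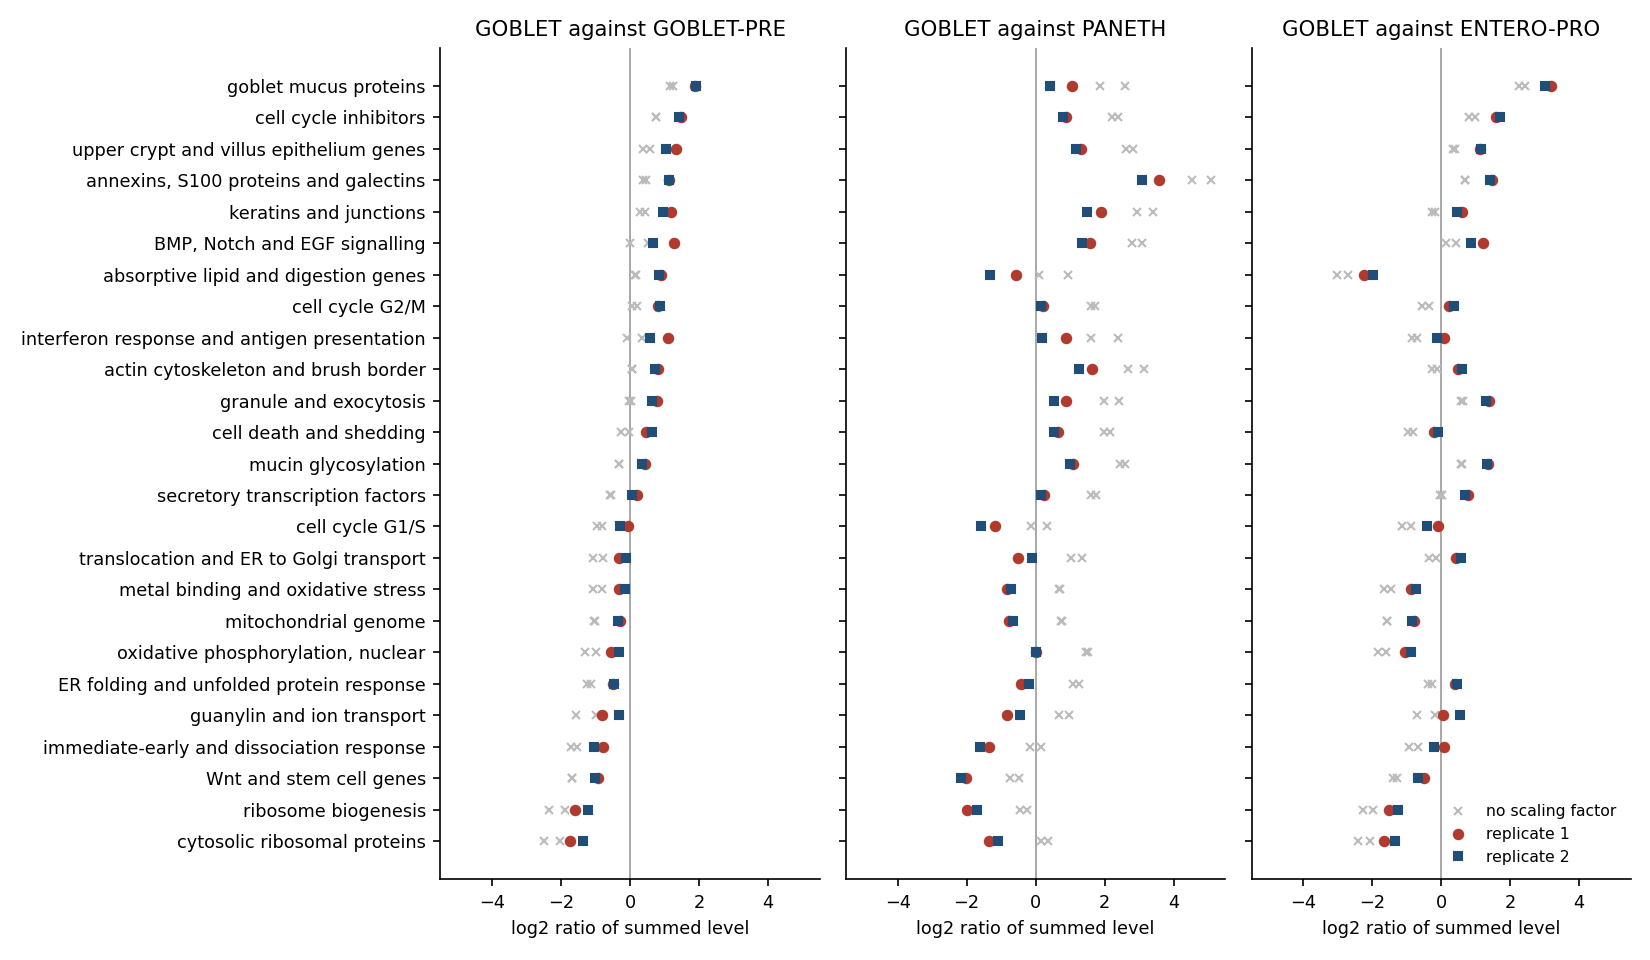
The log2 ratio of the summed level of each gene list in GOBLET to GOBLET-PRE, PANETH and ENTERO-PRO (horizontal axis), with replicate 1 as circles, replicate 2 as squares and grey crosses for values without the scaling factor. Mucus proteins lie at 1.90 and 1.91 against GOBLET-PRE and ribosomal proteins at -1.73 and -1.38. Crosses in the PANETH panel lie to the right of the points, in the other panels to the left.

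Against PANETH, 643 genes were compared, with 154 higher (24.0%) and 128 lower (19.9%) in GOBLET, and without the scaling factor 280 higher and 33 lower. The largest differences on the low side were in Mptx2, a pentraxin of Paneth cells, and alpha-defensins, whose near-identical copies can share reads and are uncertain one by one. Mptx2 had 247 scaled CPM in each GOBLET library, against 28413 and 32528 in PANETH. Lyz1, Paneth lysozyme, had 2557 and 1031 in GOBLET, against 151216 and 100088 in PANETH. The 22 alpha-defensin genes together held 2.59% and 1.75% of GOBLET UMIs, against 66.0% and 58.3% of PANETH UMIs. In barcodes of at most 50 UMIs, taken as free RNA, they held 10.73% and 17.98%. Of the 2.59% in replicate 1 a single cell gave much: alpha-defensins were 37.9% of its UMIs, the next highest cell had 3.52%, and the share without it was 1.11%. Of the 8 Paneth markers 0 were at 0 UMIs in GOBLET, and 8 of 8 were lower than in PANETH.

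Against ENTERO-PRO, 637 genes were compared, with 118 higher (18.5%) and 129 lower (20.3%), and without the scaling factor 51 higher and 292 lower. Fabp6, the ileal bile acid binding protein, had 188 and 117 scaled CPM in GOBLET (19 UMIs in each library), against 7139 and 4677 in ENTERO-PRO. Apoa1, an apolipoprotein of lipid absorption, had 59.2 and 130 in GOBLET, against 4207 and 1824 in ENTERO-PRO. Of 32 absorptive genes listed, 9 were compared and 7 were lower, with 0 higher, against 20.3% of all genes lower. Fabp6 and Apoa1 reached the minimum for this comparison only through their ENTERO-PRO level. The count of lower genes therefore follows in part from the minimum and is a description only. Fabp2, a fatty acid binding protein, had 2517 and 1556 in GOBLET, against 7400 and 2379 in ENTERO-PRO and 952 and 636 in GOBLET-PRE. It was the 1 enterocyte marker of 9 compared with GOBLET-PRE. Alpi, another of the 9, was at 0 UMIs.

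Beside each of the 11 other classes, 484 genes were compared, of which 38 were higher (7.85%) and 35 lower (7.23%) in GOBLET than in every one of them. By the smallest difference over classes and libraries the leading genes were Ido1, Ddx60, Zg16, S100a6, Gsta4, Mxd1 and Fcgbp. Gsta4, a glutathione transferase that clears products of lipid oxidation, had 543 and 679 scaled CPM in GOBLET, against 60.7 and 59.4 in ENTERO-PRO, the next class, and 53.3 and 60.7 in GOBLET-PRE. Fer1l6, a ferlin, had 869 and 556 in GOBLET, against 117 and 123 in GOBLET-PRE, the next class. Among the 35 lower genes 28 encode ribosomal proteins, a family with 78 of the 484 genes compared. The other 7 were Npm1, Rack1, Ptma, Eef1a1, Eef1b2, Hsp90ab1 and Naca, most of them parts of translation or protein folding. With no scaling factor 14 were higher and 0 lower. The factor was 0.230 and 0.256 in PANETH. Before scaling, ribosomal protein genes held 2.67% and 3.15% of PANETH UMIs, below the 3.21% and 4.31% of GOBLET.

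**Figure D4:**
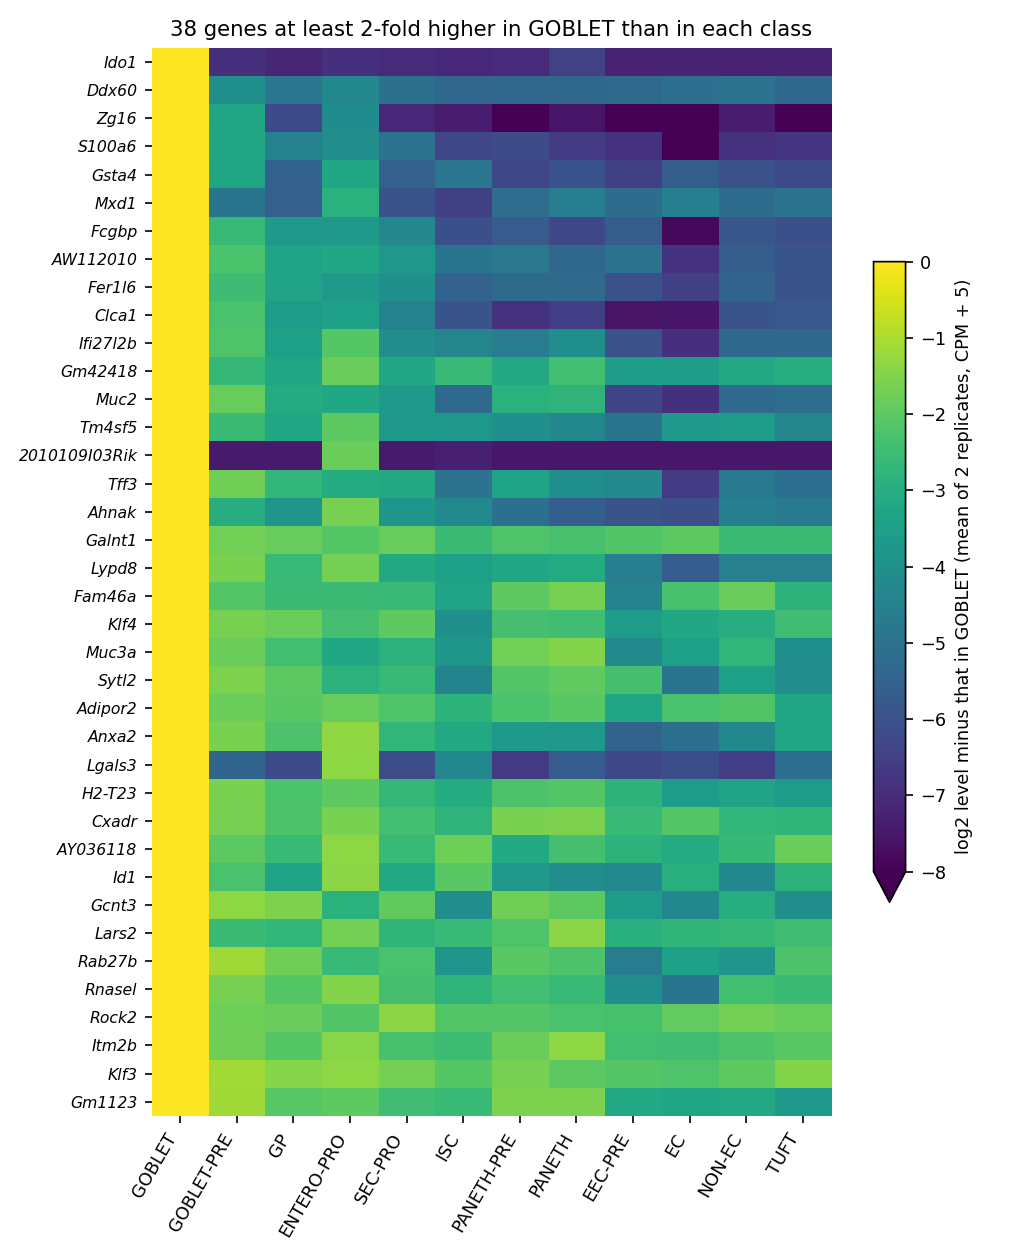
The 38 genes at least 2-fold higher in GOBLET than in each other class (rows), with colour giving the log2 level in each class minus that in GOBLET, as the mean of both replicates on the (CPM + 5) scale. GOBLET is the left column at 0 and every other cell of the map is below it, with Ido1 dark in all other columns and Lgals3 lightest in ENTERO-PRO.

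Transcripts of Paneth cells were present among GOBLET UMIs, and Defa24 was among the 12 highest genes. The 8 Paneth markers summed to 40881 and 29857 scaled CPM in GOBLET, against 12572 and 21339 in GOBLET-PRE, and 0 of them were at 0 UMIs in GOBLET. Without the single defensin-rich cell of replicate 1, the GOBLET sum there was 17650. These sums carry the scaling factor. Before scaling, alpha-defensins held 2.59% and 1.75% of GOBLET UMIs, against 1.21% and 1.93% of GOBLET-PRE UMIs. Without that cell the GOBLET share in replicate 1 was 1.11%, so before scaling neither library then stood above GOBLET-PRE. Defa21 and Defa22 were called higher than in GOBLET-PRE and Mmp7 lower. The mean log2 difference was 1.89 for Defa21 and 1.94 for Defa22 with that cell and 1.23 and 1.27 without it, and both calls were lost with relative log expression factors and without scaling. Markers of other types were much lower in sum. The 9 enterocyte markers summed to 2794 and 1883 in GOBLET, against 989 and 688 in GOBLET-PRE. The 9 enteroendocrine markers summed to 355 and 302 in GOBLET, against 164 and 131 in GOBLET-PRE, most of it Sct, and 4 of them were at 0 UMIs. Of the tuft markers 4 of 6 were at 0 UMIs in GOBLET, of the immune markers 6 of 7, of the stromal and endothelial markers 5 of 5 and of the erythroid markers 3 of 3. Stem cell markers summed to 69.1 and 43.2 in GOBLET, against 39.1 and 36.4 in GOBLET-PRE, and proliferation markers to 39.5 and 61.7, against 47.2 and 62.9 in GOBLET-PRE. The part of admixed cells and free RNA in the Paneth and enterocyte transcripts was not tested.

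Of the 13 genes of the mitochondrial genome, 11 were compared with ENTERO-PRO and 7 were lower, against 20.3% of all genes. Of 30 nuclear genes of oxidative phosphorylation, 21 were compared and 6 were lower, nearer to that share. Unscaled, 11 of 12 and 23 of 25 were lower. Against GOBLET-PRE, where 14.8% of all genes were lower, 0 of 11 mitochondrial and 1 of 21 nuclear genes (Ndufa4) were lower, and unscaled 8 of 12 and 9 of 22, so these counts depend on the scaling. Of the 31 upper crypt and villus genes, 9 were compared with GOBLET-PRE and 4 were higher (2210407C18Rik, Cdkn1a, Phgr1 and Malat1), against 16.4% of all genes. Of these 4, 0 were called unscaled. Cdkn1a is also on the list of cell cycle inhibitors. Malat1 is not particular to such cells: its median share of a cell's UMIs was 3.42% and 2.91% in TUFT, against 1.76% and 1.85% in GOBLET.

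Gm42418, AY036118 and Lars2 are among the 38 and are read with care. Gm42418 and AY036118 lie over ribosomal RNA sequence, and their UMIs can come from it. Gm42418 held 8.97% and 6.73% of GOBLET UMIs, against 1.92% and 2.08% in GOBLET-PRE. Malat1, a nuclear RNA, held 1.92% and 1.89% of GOBLET UMIs, against 1.17% and 1.38% in GOBLET-PRE. The median mitochondrial share of a cell was 1.99% and 1.78% in GOBLET, against 3.80% and 3.57% in GOBLET-PRE. GOBLET cells also had fewer UMIs than GOBLET-PRE cells in both libraries, with medians of 3201.5 and 2763.5 in GOBLET, against 6104 and 3369 in GOBLET-PRE. The part of RNA quality and depth in the differences above was not tested.

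Over 1255 genes with at least 100 scaled CPM in a class, the GOBLET level was most like GOBLET-PRE (Spearman 0.757 and 0.813), followed by ENTERO-PRO (0.664 and 0.708) and GP (0.649 and 0.713), whose order differed between libraries. The lowest values were those of EEC-PRE (0.327 and 0.376), ISC (0.302 and 0.412) and EC (0.289 and 0.413), also in an order that differed between libraries. Genes are not independent, so these are descriptions. PANETH stood at 0.545 and 0.590. The GOBLET libraries correlated with each other at 0.926, and 34 of 690 genes (4.93%) differed by more than 2-fold between them.

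Single GOBLET cells differed widely in how full of product they were. The 5 products together took a median of 32.0% of a cell's UMIs in replicate 1 (14.7 to 58.6%) and 33.7% in replicate 2 (11.3 to 56.6%), against 9.13% and 8.09% in GOBLET-PRE cells. Only 2 of 2318 and 1 of 1465 GOBLET-PRE cells passed the GOBLET median, while 22.3% and 31.2% passed the lowest GOBLET cell. Zg16 alone ranged from 2.75 to 42.9% of a GOBLET cell's UMIs in replicate 1 and from 0.584 to 35.8% in replicate 2. Its Fano factor at 1000 UMIs was 62.7 and 44.8, against a median of 1.42 and 1.39 over 109 genes. Gm42418, which lies over ribosomal RNA sequence, had a higher one, 74.3 and 65.8, and ranged from 0.437 to 34.4% of a GOBLET cell's UMIs in replicate 1 and from 0.264 to 26.2% in replicate 2. Its part in the spread of the product shares was not tested. Cells with more product had a smaller ribosomal protein share, with a Spearman correlation of -0.46 over 42 cells and -0.51 over 84, a description of shares that are parts of the same total.

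**Figure D5:**
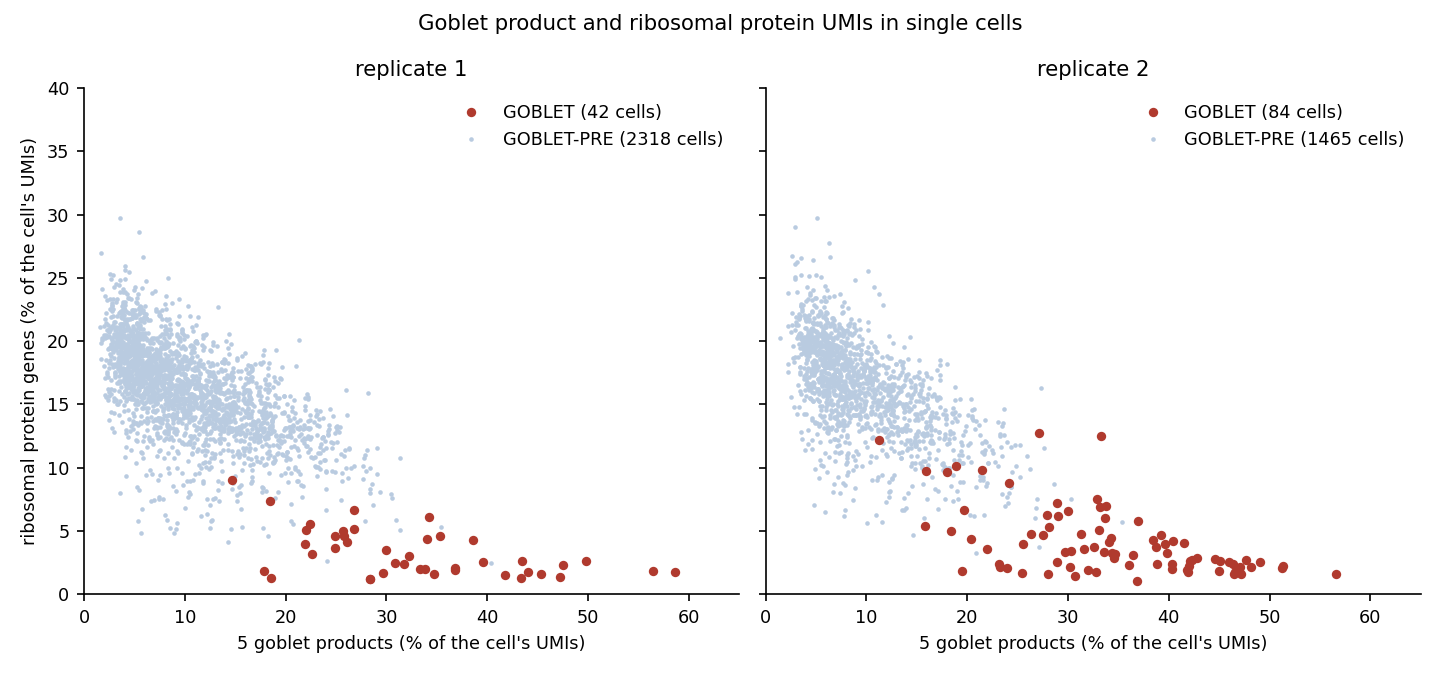
Each point is a cell, with the share of its UMIs in the 5 goblet products (horizontal, %) and in ribosomal protein genes (vertical, %), for GOBLET (red, 42 and 84 cells) and GOBLET-PRE (pale blue, 2318 and 1465 cells) in replicate 1 and replicate 2. GOBLET cells lie to the right and low, with a median of 32.0% and 33.7% product, and the lowest GOBLET cells lie among GOBLET-PRE cells.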

How the data were processed

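Ileal crypt cells sorted as Tom+ were made into 2 10x Genomics 3' libraries. The submitters' processing notes name Cell Ranger 3.0.2, STAR and build mm10. The matrices as deposited give unnormalized UMI counts for 31053 genes in every barcode. The authors' cell table gives each listed cell's class, UMI and gene counts and percent of mitochondrial UMIs; no source used here says how classes were assigned or doublets treated. Listed cells have over 600 genes and under 7% mitochondrial UMIs. No doublet caller was run.

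GOBLET cells were matched by barcode. The libraries held 66021021 and 40869800 UMIs, of which 154169 and 232707 were in GOBLET, and 12 barcodes were shared by both libraries, 0 of them GOBLET. UMIs were summed per class and library (24 sums) and scaled by TMM factors (edgeR 4.0.16, R 4.3.3) from 2186 genes of average log2 CPM of at least 6. DESeq2 1.42.0 gave the alternative factors, and Python 3.11.15 did the rest. No test was made, since the classes come from these UMIs and there is 1 group. Alternatives were another scaling, none, other minimums and pseudocount, means over cells, thinning and leaving out a library. Folds and calls were tested on data simulated from 1 GOBLET-PRE profile with counting error only. That simulation does not test the scaling or variation between libraries. Intervals and floors (3 counts) cover counting error only. By rule 139 genes were named: the markers, the 12 highest in GOBLET, the 10 largest called differences each way from GOBLET-PRE, PANETH and ENTERO-PRO and 3 each way from every other class, up to 20 each way against all classes, the mucus and transcription factor lists whole, and up to 3 called members, or members going against it, of every other list. Other genes in the text were chosen after their values were seen. The members and the 25 gene lists were chosen with earlier results of these data known. Gene positions are from GENCODE M21. Spread is over 2 libraries, which may be technical.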

Additional observations from a re-analysis of the deposited data

Results flagged for a closer look

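Barcodes outside the authors' cell table were searched for the GOBLET pattern, because these are data the comparisons did not use. In replicate 1, 18 of 4125 unlisted barcodes with at least 500 UMIs had a share of the 5 goblet products at or above the 5th percentile of GOBLET cells (18.5%). In replicate 2, 54 of 2667 did, or 2.02% against 0.436% in replicate 1. Free RNA held 3.85% and 2.71% of product, well below that level. Of these barcodes 12 of 18 and 53 of 54 had at most 600 genes, and 10 and 4 had 7% or more mitochondrial UMIs; 0 lay within both of these limits, which every listed cell keeps. They have not been counted as cells.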

How the results depend on the processing

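No paired analysis was possible because the results come from no test, and there is 1 group of 2 libraries; each fold was already taken between classes within the same library. Without the scaling factor, higher and lower counts were 37 and 230 against GOBLET-PRE, 280 and 33 against PANETH, 51 and 292 against ENTERO-PRO, and 14 and 0 against each of the 11 classes. With a minimum of 10 expected UMIs, more genes were compared: 192 were higher than in GOBLET-PRE, 285 than in PANETH, 230 higher and 196 lower than in ENTERO-PRO, and 73 higher than in each class. With no minimum, counts were 623 and 771 against GOBLET-PRE, 875 and 1461 against PANETH, 707 and 1116 against ENTERO-PRO, and 178 and 223 against each class. With cells thinned to 1000 UMIs, fewer genes were compared: 29 were higher than in GOBLET-PRE, 38 higher and 79 lower than in PANETH, 30 higher and 71 lower than in ENTERO-PRO, and 12 higher than in each class. With 1 library, a call needs only that library: leaving out each replicate gave 148 to 177 higher and 113 to 126 lower against GOBLET-PRE, 184 to 256 and 163 to 190 against PANETH, 158 to 230 and 163 to 176 against ENTERO-PRO, 56 to 74 and 46 to 60 against each class, and a GOBLET share of 0.792 to 1.34% of listed cells. Without thinning, Krt20 was in 97.0% and Lgals3 in 58.3% of GOBLET cells, in place of 75.6% and 34.5% (means of both libraries). Relative log expression factors, a pseudocount of 1 and means over cells kept every count within 1.5 times, as did leaving out the defensin-rich cell, an alternative chosen after seeing the data. Of 139 named genes, 66 were called against GOBLET-PRE; 22 of these calls were lost without scaling, 39 with thinning, 4 with relative log expression factors and 1 without the defensin-rich cell, and 0 reversed under any alternative run.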
